A study of Mus musculus with 9 samples.

Results

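The genes described here carry out cholesterol and fatty acid handling in macrophages: Apoe, Abca1, Abcg1, Lpl, Lipa, Cd36, Fabp4, Fabp5, Plin2 and Soat1. They were listed by symbol and found through their Ensembl identifiers in a table of 53465 genes. All 10 were in the table, and all 10 passed the filter on low counts, which left 12610 genes tested. Stranded mRNA libraries were sequenced from mouse macrophages in 3 groups of 3 samples, named by letter. Lining macrophages (A, B and C) were sorted from the synovium of hind paws of healthy Cx3cr1-GFP mice as CD45+CD11b+F4/80+ cells with GFP, which reports activity of the fractalkine receptor gene Cx3cr1. Interstitial macrophages (D, E and F) came from the same tissue and strain as CD45+CD11b+F4/80+ cells without GFP. Bone marrow-derived macrophages (BMDM; G, H and I) were grown from C57BL/6 marrow for 5 days with MCSF, the growth factor that drives macrophage differentiation. The joint groups therefore differ from each other in the reporter used to sort them. They differ from BMDM in tissue, strain label, sorting and culture at once, and these cannot be told apart. The labels do not say whether samples of a group were separate animals, pools or aliquots, so p-values measure only the spread between these samples.

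Libraries held 2194920 to 11137451 counts in lining, 2238261 to 10807462 in interstitial and 19427273 to 22499823 in BMDM. Levels are given in CPM, read counts brought to a common library size with the scaling factors of edgeR (TMM, trimmed mean of M values). A floor of 3 counts corresponded to 0.286 to 1.45 CPM in lining, 0.273 to 1.33 CPM in interstitial and 0.130 to 0.149 CPM in BMDM, for counting error only. Each of 8 macrophage markers was detected in each group, and their summed level was 9376 to 10979 CPM in lining, 6480 to 9620 CPM in interstitial and 5166 to 5437 CPM in BMDM. The largest part was Csf1r, with means of 5923, 5349 and 2558 CPM in these groups, while Ptprc had means of 451, 460 and 449 CPM. Against BMDM 6 of the 8 were higher and 0 lower in lining. In interstitial 3 were higher and 2, Fcgr1 and Cx3cr1, lower than in BMDM. In lining over interstitial 3 of these 8 markers, Cd68, Fcgr1 and Cx3cr1, were higher and the others did not pass in edgeR. Cx3cr1 had a mean of 708 CPM in lining, against 4.93 CPM in interstitial, and these levels enter the sums. Its reporter separated these groups, so its difference was set by the sorting. Ptprc, Itgam and Adgre1 encode the surface antigens used to sort the joint cells, so their detection there is not an independent check. In bulk samples, fewer cells of a type and less RNA per cell cannot be told apart.

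Macrophages take up modified lipoproteins and cell debris through receptors such as CD36, and lysosomal acid lipase, the product of Lipa, frees cholesterol and fatty acids from the esters they bring in. Free cholesterol is either esterified again by SOAT1 and stored in droplets coated by PLIN2, or exported. ABCA1 exports it to apolipoproteins such as APOE, and ABCG1 to mature lipoprotein particles. Oxysterols formed from excess cholesterol activate the nuclear receptor LXR, of which Abca1, Abcg1 and Apoe are textbook targets in macrophages. PPAR receptors, bound by fatty acids, are known for regulating Cd36, Fabp4, Plin2 and Lpl.

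Promoter windows were read because LXR and PPAR elements are direct repeats of a shared half-site. RefSeq windows on GRCm38.p6, from 250 bases before to 50 after a start, were held for 6 of the 10 genes (8 windows): Apoe, Abca1, Lipa, Cd36, Plin2 and Soat1. Both strands were searched for the LXR repeat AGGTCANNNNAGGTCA (DR4) and the PPAR repeat AGGTCANAGGTCA (DR1), which are built from the same letters. With up to 2 mismatches over both half-sites, DR4 was in 3.02% and DR1 in 3.86% of all 32851 windows, and the DR1 matches included Plin2 and Cd36. With up to 3 mismatches, a limit set after the first search, DR4 was in 21.9% and DR1 in 24.6% of windows, and the single DR4 match among these genes was in Abca1. DR1 with exactly 3 mismatches was found at 2 further places in Apoe, 2 in Cd36 and 1 in Plin2, which are left in lower case. The windows of Abca1, Cd36 and Plin2, and the Apoe window at the outer start of the gene, are printed 5′ to 3′ on the strand of the gene. Capitals mark the DR1 matches with 2 mismatches and the DR4 match with 3. A match is a string of letters and shows no binding. The Abca1 match lay on the opposite strand 67 to 52 bases before the start (chr4:53159846-53160145, minus strand):
Abca1: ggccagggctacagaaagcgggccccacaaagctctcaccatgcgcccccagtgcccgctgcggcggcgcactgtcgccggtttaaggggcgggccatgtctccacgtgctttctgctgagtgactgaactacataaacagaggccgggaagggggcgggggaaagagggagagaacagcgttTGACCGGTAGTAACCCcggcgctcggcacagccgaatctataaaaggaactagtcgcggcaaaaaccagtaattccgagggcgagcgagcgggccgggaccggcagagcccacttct
The Cd36 match lay on the opposite strand 63 to 51 bases before a start that is inside the span of the gene (chr5:17835847-17836146, minus strand):
Cd36: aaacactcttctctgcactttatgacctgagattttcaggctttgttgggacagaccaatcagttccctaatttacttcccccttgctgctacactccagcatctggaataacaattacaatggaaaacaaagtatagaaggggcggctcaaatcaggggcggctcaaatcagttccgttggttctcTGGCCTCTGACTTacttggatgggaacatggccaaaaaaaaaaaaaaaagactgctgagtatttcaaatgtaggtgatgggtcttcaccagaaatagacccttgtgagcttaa
The Plin2 match lay on the opposite strand 225 to 213 bases before the start (chr4:86670010-86670309, minus strand):
Plin2: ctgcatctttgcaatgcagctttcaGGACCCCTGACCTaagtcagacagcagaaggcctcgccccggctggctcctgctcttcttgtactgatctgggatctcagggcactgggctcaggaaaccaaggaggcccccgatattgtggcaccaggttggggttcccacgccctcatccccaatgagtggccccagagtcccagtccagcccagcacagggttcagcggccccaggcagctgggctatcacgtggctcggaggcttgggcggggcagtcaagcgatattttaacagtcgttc
The Apoe window held no match at 2 mismatches (chr7:19699139-19699438, minus strand):
Apoe: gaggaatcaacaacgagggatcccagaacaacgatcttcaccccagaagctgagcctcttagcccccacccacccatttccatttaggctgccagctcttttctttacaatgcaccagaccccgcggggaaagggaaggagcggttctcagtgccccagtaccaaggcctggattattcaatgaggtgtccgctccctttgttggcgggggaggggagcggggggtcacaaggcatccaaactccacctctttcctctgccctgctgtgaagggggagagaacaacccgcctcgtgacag

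Most of the 10 genes differed between joint macrophages and BMDM, in both directions. Apoe, Abca1 and Cd36 were higher in lining and in interstitial than in BMDM, while Lpl, Lipa, Fabp5, Plin2 and Soat1 were lower in both. In lining over BMDM 3 genes were higher, 6 lower and 1 did not pass. In that comparison 43.5% of all genes tested were called at an adjusted p under 0.05, 23.1% higher and 20.5% lower, in edgeR's quasi-likelihood test with Benjamini-Hochberg adjustment over all genes. In interstitial over BMDM 3 genes were higher, 5 lower and 2 did not pass, against 44.8% of all genes called, 23.4% higher and 21.3% lower. In lining over interstitial Apoe was higher, Cd36 and Fabp4 were lower and 7 did not pass, against 5.79% of all genes called, 3.74% higher and 2.05% lower (471 and 259 genes, which with plain library totals in place of TMM became 380 and 326). The median log2 fold change of the 10 genes was -1.36 in lining over BMDM, -0.99 in interstitial over BMDM and -0.01 in lining over interstitial, and that of all genes tested lay between -0.01 and 0.00. Their median absolute log2 fold change was 2.34, 1.95 and 0.61 in these comparisons in that order, against 0.71, 0.73 and 0.34 for all genes. Both comparisons with BMDM use the same 3 BMDM libraries.

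**Figure D1:**
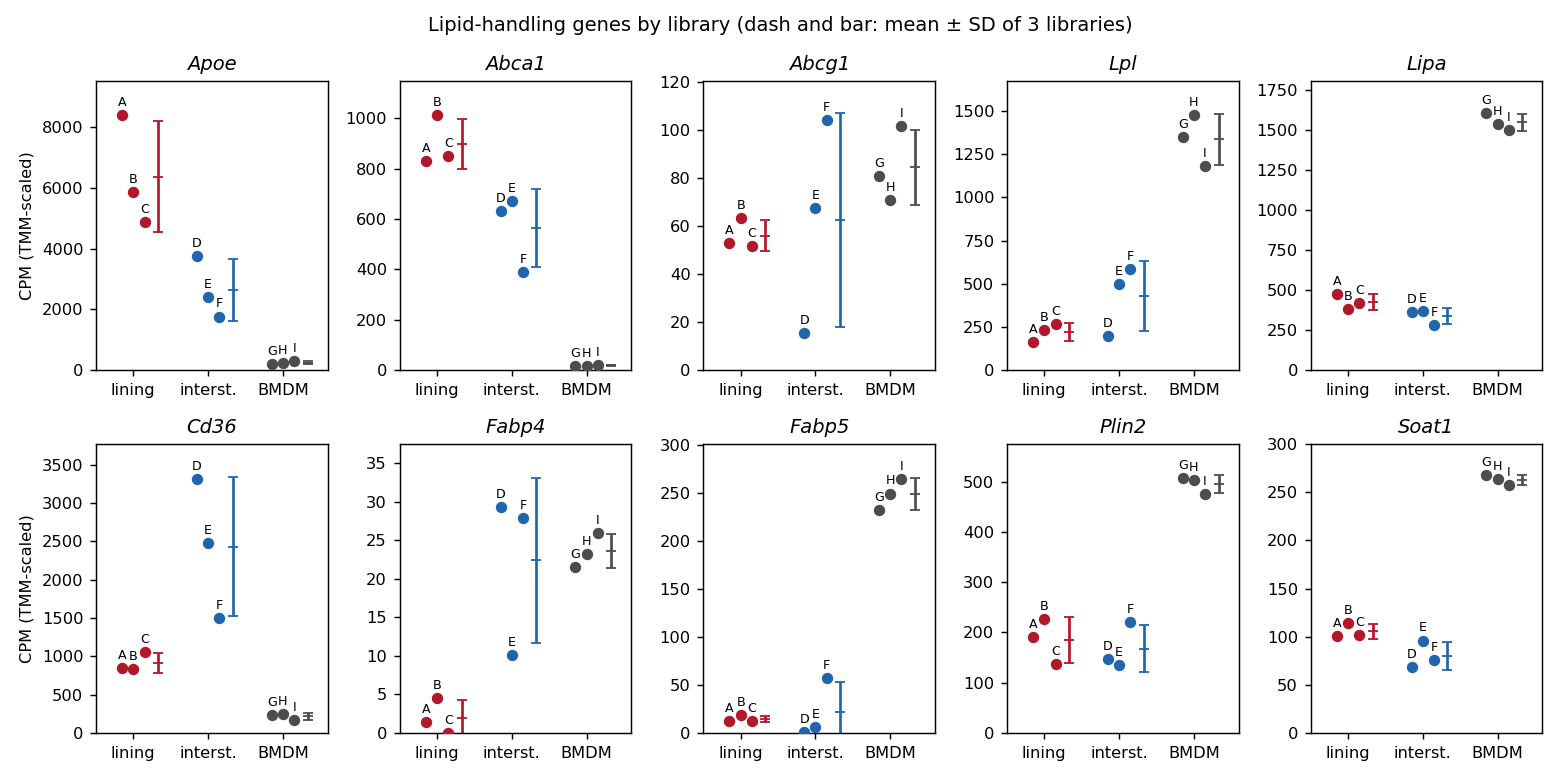
CPM (TMM-scaled, linear axes from 0) of each of the 10 genes in lining (A to C), interstitial (D to F) and BMDM (G to I) libraries, with the mean ± SD of each group beside its points (bars that reach below 0 are clipped). Apoe, Abca1 and Cd36 are lowest in BMDM, Lpl, Lipa, Fabp5, Plin2 and Soat1 are highest there, and Fabp4 is lowest in lining.

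Apoe, which encodes the apolipoprotein that accepts exported cholesterol (ENSMUSG00000002985, chromosome 7, 19696109 to 19699188, minus strand), had 8402, 5858 and 4865 CPM in lining A to C, against 3752, 2409 and 1768 CPM in interstitial D to F and 195, 239 and 314 CPM in BMDM G to I. None of the 3 groups overlapped, and the order of the means was lining, interstitial, BMDM. Lining was 25.6-fold above BMDM (log2 fold change 4.68 ± 0.33 SE, edgeR adjusted p = 6.93e-07), and interstitial was 10.6-fold above BMDM (3.41 ± 0.31, edgeR adjusted p = 5.40e-06). Lining was 2.41-fold above interstitial (1.27 ± 0.29, edgeR adjusted p = 0.0254). The direction of this last difference held in all 16 alternatives tried, with log2 fold changes of 1.01 to 1.59, and the call was lost without lining A (adjusted p = 0.117), lining B (0.0676), interstitial E (0.0884) or interstitial F (0.0540) and with no filter on low counts (0.158). Per kilobase of exon, Apoe had the 7th highest mean level of the 12610 genes tested in lining, the 24th in interstitial and the 342nd in BMDM.

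Of the efflux transporter genes, Abca1 was higher in both joint groups than in BMDM and Abcg1 passed in no comparison. Abca1, whose product loads cholesterol onto lipid-poor apolipoproteins (ENSMUSG00000015243, chromosome 4, 53030787 to 53159895, minus strand), had 830.3, 1013 and 852 CPM in lining, against 633, 672 and 389 CPM in interstitial and 18.0, 17.4 and 21.9 CPM in BMDM. It was 46.9-fold higher in lining than in BMDM (5.55 ± 0.24, edgeR adjusted p = 7.28e-09) and 29.5-fold higher in interstitial than in BMDM (4.88 ± 0.23, edgeR adjusted p = 1.44e-08). These were the largest of the 10 genes in both comparisons with BMDM, and both calls held in all 16 alternatives. Lining and interstitial did not overlap for Abca1, with a log2 fold change of 0.67 ± 0.19 that did not pass (edgeR adjusted p = 0.0696). It passed with the DESeq2 test, with limma-voom and with no filter (adjusted p = 0.0256, 0.0257 and 0.0353).

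Abcg1, whose product passes cholesterol to mature lipoprotein particles (ENSMUSG00000024030, chromosome 17, 31057698 to 31115777, plus strand), had 52.9, 63.6 and 51.8 CPM in lining, against 15.5, 67.6 and 104 CPM in interstitial and 80.7, 71.0 and 102 CPM in BMDM. The interstitial libraries spread 6.71-fold and overlapped both other groups, while lining lay below BMDM in every library. The log2 fold change was -0.58 ± 0.49 in lining over BMDM (edgeR adjusted p = 0.373), -0.41 ± 0.48 in interstitial over BMDM (0.529) and -0.18 ± 0.50 in lining over interstitial (0.893). Without interstitial D, or with the 6 lining and BMDM libraries alone, lining over BMDM passed at -0.64 and -0.60 (adjusted p = 0.0215 and 0.0144). Without interstitial F, lining over interstitial was 0.32 (0.715).

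Exon lengths are those deposited with the counts and were not checked against the transcripts expressed in these cells. Levels of different genes are compared per kilobase of exon. On that scale Abca1 stood above Abcg1 by a ratio of 6.16, 6.25 and 6.45 in the lining libraries and 16.0, 3.90 and 1.47 across the interstitial libraries, and below it in BMDM G to I, at 0.0877, 0.0964 and 0.0848. Every joint library thus had more Abca1 than Abcg1, and every BMDM library less.

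**Figure D2:**
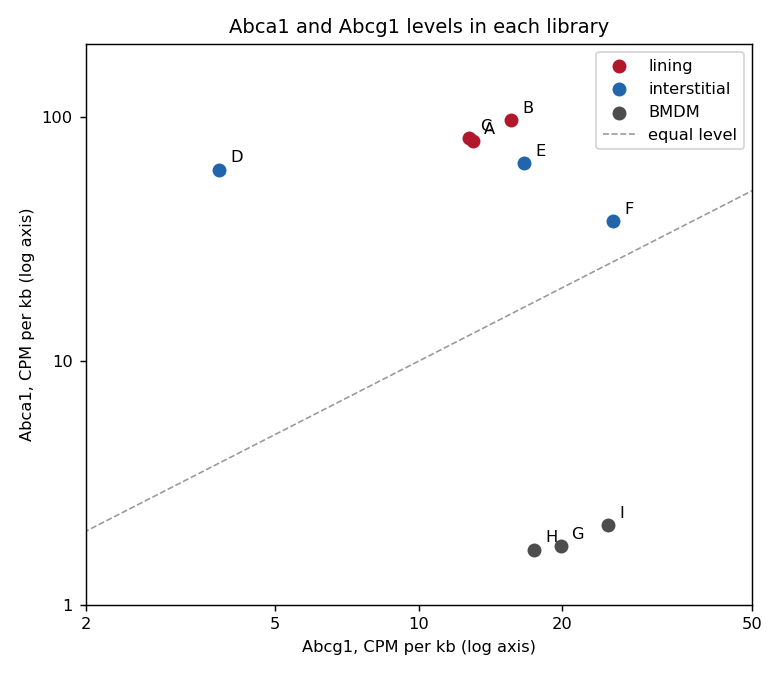
Abca1 (vertical) against Abcg1 (horizontal) in CPM per kilobase of exon, both on log axes, 1 point per library with its letter. The dashed line marks equal levels, with the 6 joint libraries above it (ratios 1.47 to 16.0) and the 3 BMDM libraries below it (0.0848 to 0.0964).

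Both lipase genes were lower in joint macrophages than in BMDM. Lpl encodes lipoprotein lipase, a secreted enzyme that releases fatty acids from triglyceride-rich particles (ENSMUSG00000015568, chromosome 8, 68880491 to 68907448, plus strand). Lpl had 162, 235 and 267 CPM in lining, against 199.9, 500.4 and 586 CPM in interstitial and 1352, 1476 and 1183 CPM in BMDM. It was lower by a log2 fold change of -2.59 ± 0.35 in lining over BMDM (edgeR adjusted p = 2.19e-04) and of -1.64 ± 0.34 in interstitial over BMDM (0.00301). Lining and interstitial overlapped through interstitial D, and their difference of -0.95 ± 0.34 did not pass (0.150). It was -1.31 and passed without interstitial D (adjusted p = 0.00343), and it passed with the DESeq2 test at -0.97 (0.0291).

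Lipa, the lysosomal acid lipase gene (ENSMUSG00000024781, chromosome 19, 34492318 to 34527474, minus strand), had 477, 380 and 418 CPM in lining, against 364, 369 and 279.5 CPM in interstitial and 1604, 1538 and 1499 CPM in BMDM. It was 3.65-fold lower in lining than in BMDM (-1.87 ± 0.15, edgeR adjusted p = 1.16e-06) and 4.59-fold lower in interstitial than in BMDM (-2.20 ± 0.15, edgeR adjusted p = 3.38e-07). Lining and interstitial did not overlap, and their difference of 0.33 ± 0.15 did not pass (0.235).

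Cd36, a scavenger receptor gene for oxidised lipoproteins and long-chain fatty acids (ENSMUSG00000002944, chromosome 5, 17781690 to 17888801, minus strand), had 849.7, 834 and 1061 CPM in lining, against 3313, 2479 and 1502 CPM in interstitial and 231, 246 and 169 CPM in BMDM. The groups did not overlap, and interstitial stood highest. Cd36 was 2.66-fold lower in lining than in interstitial (-1.41 ± 0.25, edgeR adjusted p = 0.00601), a call that held in all 16 alternatives (highest adjusted p = 0.0474). It was 4.24-fold higher in lining than in BMDM (2.08 ± 0.26, edgeR adjusted p = 4.48e-05) and 11.3-fold higher in interstitial than in BMDM (3.49 ± 0.27, edgeR adjusted p = 9.64e-07). Cd36 and Lpl, both concerned with fatty acid supply, were thus ordered oppositely between joint and culture. Per kilobase, Cd36 stood above Lpl by a ratio of 10.3 to 15.3 in lining and 7.48 to 48.4 in interstitial, and below it in BMDM (0.418 to 0.499).

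Fabp4 and Fabp5 encode small cytosolic carriers of fatty acids of 1 family and lie near each other on chromosome 3 (Fabp4, ENSMUSG00000062515, 10204088 to 10208576, minus strand; Fabp5, ENSMUSG00000027533, 10012548 to 10016607, plus strand). Fabp4 had 3, 47 and 0 counts in lining, against 66, 111 and 131 in interstitial and 498, 467 and 562 in BMDM. On the CPM scale these were 1.45, 4.49 and 0 in lining, against 29.3, 10.1 and 27.8 in interstitial and 21.5, 23.2 and 25.9 in BMDM. Lining thus lay below both other groups, and interstitial and BMDM overlapped. Fabp4 was lower, at -3.10 ± 0.66 in lining over interstitial (edgeR adjusted p = 0.0183) and at -3.20 ± 0.65 in lining over BMDM (0.00206), and its difference of -0.10 ± 0.55 in interstitial over BMDM did not pass (0.900). Without lining B, which held most of the lining counts, 3 lining counts were left, 27.0-fold lower than in interstitial (95% counting interval 9.16 to 132) and 37.0-fold lower than in BMDM (12.6 to 179.8). The call in lining over interstitial was lost without lining A (adjusted p = 0.0761), with limma-voom (0.0763) and with the 6 joint libraries alone (0.0656). Without interstitial E, the difference in interstitial over BMDM was 0.27 (0.733).

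Fabp5 had 12.6, 18.3 and 12.8 CPM in lining, against 0.887, 6.37 and 57.6 CPM in interstitial and 232, 249 and 265 CPM in BMDM. BMDM lay above every joint library. Within interstitial the highest library, F, was 64.9-fold above the lowest, D, which held 2 counts. Fabp5 was lower, at -4.04 ± 1.02 in lining over BMDM (edgeR adjusted p = 0.0166) and at -3.49 ± 0.98 in interstitial over BMDM (0.0238). Each of these calls was lost without BMDM G, H or I (adjusted p = 0.0558 to 0.0575 for lining and 0.0745 to 0.0760 for interstitial), and DESeq2 gave no adjusted p for this gene. Without interstitial F, interstitial over BMDM was -5.70. In lining over interstitial the value was -0.55 ± 0.999 and did not pass (0.823), while without interstitial F lining was higher by 1.62 ± 0.39 (adjusted p = 0.0325). Fabp5 has an annotated pseudogene, Fabp5l2. The file headers name no counting option for reads that map to more than 1 place, and the effect of reads shared with Fabp5l2 was not checked.

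The storage genes Plin2 and Soat1 were lower in both joint groups than in BMDM. Plin2, the gene of the main droplet coat protein of macrophages (ENSMUSG00000028494, chromosome 4, 86648386 to 86670060, minus strand), had 190.1, 228 and 137 CPM in lining, against 146, 135 and 222 CPM in interstitial and 507, 504 and 475 CPM in BMDM. Plin2 was 2.67-fold lower in lining than in BMDM (-1.42 ± 0.21, edgeR adjusted p = 2.08e-04) and 2.96-fold lower in interstitial than in BMDM (-1.56 ± 0.21, edgeR adjusted p = 9.37e-05). Lining and interstitial overlapped, with a difference of 0.15 ± 0.21 that did not pass (0.764) and was -0.05 without lining B. Soat1 makes the enzyme that esterifies cholesterol (ENSMUSG00000026600, chromosome 1, 156424525 to 156474331, minus strand). It had 100.4, 114 and 102 CPM in lining, against 68.7, 96.0 and 75.4 CPM in interstitial and 267, 264 and 257 CPM in BMDM. Soat1 was 2.48-fold lower in lining than in BMDM (-1.31 ± 0.14, edgeR adjusted p = 1.61e-05) and 3.26-fold lower in interstitial than in BMDM (-1.71 ± 0.14, edgeR adjusted p = 1.84e-06). Lining and interstitial did not overlap for Soat1, but their difference of 0.39 ± 0.14 did not pass (0.150), except without interstitial E (0.55, adjusted p = 0.0455).

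**Figure D3:**
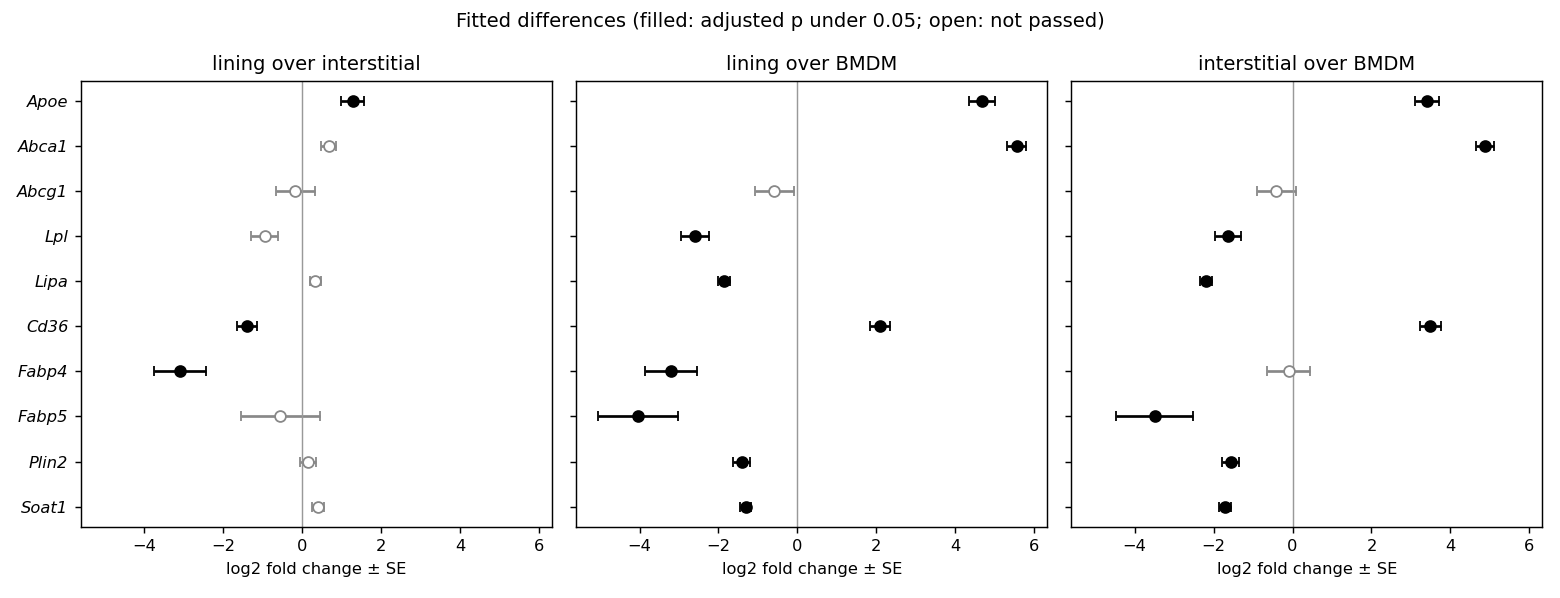
Fitted log2 fold change ± SE (horizontal axis) of each gene (down the page) in the 3 comparisons, from edgeR, with filled points where the adjusted p is under 0.05 and open points where it is not. Apoe, Abca1 and Cd36 lie right of 0 against BMDM in both joint groups, 6 genes in lining and 5 in interstitial lie left of 0 and passed, and Apoe, Cd36 and Fabp4 passed between lining and interstitial.

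Groups did not overlap for 6 of the 10 genes in lining over interstitial (18.6% of all genes tested), for all 10 in lining over BMDM (63.1%) and for 8 in interstitial over BMDM (62.2%). Per kilobase, the order of the mean levels within the set was the same in lining and in interstitial, with Apoe first (2982 and 1236 CPM per kilobase), followed by Cd36, Lipa, Abca1, Plin2, Lpl, Abcg1, Soat1, Fabp5 and Fabp4. In BMDM Lipa was first (521), followed by Plin2 (141), Lpl (128), Apoe (117), Fabp5, Cd36, Soat1, Abcg1, Fabp4 and Abca1 (1.85). Abca1 was thus the 4th of the 10 in each joint group and the last in BMDM. Places, ranks and ratios between genes also depend on the deposited exon lengths. These were 2138 bases for Apoe, 4489 for Fabp4, 3567 for Fabp5 and 10478 for Lpl. The coefficient of variation of CPM was 1.97% to 24.0% in BMDM, 7.20% to 28.6% in lining outside Fabp4, and 14.9% to 145% in interstitial.

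**Figure D4:**
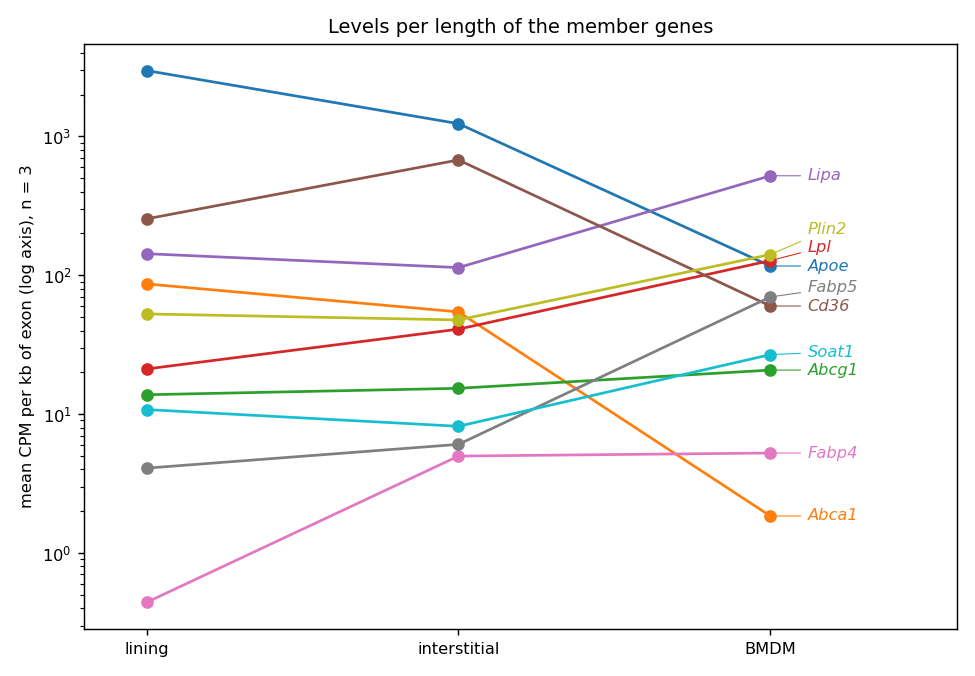
Mean CPM per kilobase of exon (log axis, n = 3 libraries) of each gene in lining, interstitial and BMDM, with lines joining the values of a gene. Apoe leads in lining (2982) and interstitial (1236) and Lipa in BMDM (521), while Abca1 drops to the lowest place in BMDM (1.85).

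Interstitial D and F lay at opposite ends for some of the genes and not for others. Interstitial D had the highest Apoe and Cd36 and the lowest Abcg1, Lpl and Fabp5 of the 3 libraries, and interstitial F had the reverse in each of these 5 genes. In the other genes E lay at an end, highest for Abca1, Lipa and Soat1 and lowest for Fabp4 and Plin2. The share of all genes tested with D and F at opposite ends was not counted. The 6 dendritic cell markers summed to 3.88 to 125 CPM in lining, against 132 to 503 CPM in interstitial and 9.50 to 10.9 CPM in BMDM. The highest sum, in interstitial F, was mostly Itgax (11.1, 42.4 and 411 CPM in interstitial D to F), whereas Cd209a was highest in D (115, 51.2 and 32.5 CPM). Of these 6, 5 were tested in lining over interstitial and 1, Cd209a, was lower. Xcr1 was not tested, with 0 CPM in lining, 0 to 0.910 CPM in interstitial and 0.199 to 0.432 CPM in BMDM. Against BMDM 3 of the 5 tested were higher in lining and 4 in interstitial, and 0 were lower. The 5 neutrophil markers summed to 0 to 4.01 CPM in lining, against 0 to 71.8 CPM in interstitial and 34.6 to 42.5 CPM in BMDM. The highest interstitial sum, in F, was mostly Retnlg (0, 20.6 and 62.2 CPM in D to F, not tested), whereas S100a8, S100a9 and Mmp8 were highest in E (9.83, 18.4 and 1.73 CPM). The 3 tested in lining over interstitial, S100a8, S100a9 and Mmp8, did not pass (edgeR adjusted p = 0.323, 0.163 and 0.186). The part of such cells in these values was not tested.

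Adipocytes and endothelium also express Fabp4, Lpl and Cd36. The 8 adipocyte markers summed to 3.15 to 15.03 CPM in lining, against 1.18 to 6.16 CPM in interstitial and 0.138 to 0.216 CPM in BMDM, of which Pck1 made up 1.62 to 14.5 CPM in lining and 1.18 to 5.73 CPM in interstitial. Lep and Plin4 were at 0 in all 9 libraries, Plin1 was at 0 in all 6 joint libraries, and Adipoq was at 0 in interstitial and at 0.375 to 0.954 CPM in lining. Pck1, the 1 adipocyte marker tested, was higher in both joint groups than in BMDM and did not pass in lining over interstitial. The part of adipocytes in the Fabp4, Lpl and Cd36 values was not tested. The 8 endothelial markers summed to 30.3 to 47.3 CPM in lining, against 43.0 to 138 CPM in interstitial and 139 to 146 CPM in BMDM. The BMDM sum was mostly Vwf (88.6 to 100.2 CPM) and Kdr (43.7 to 49.03 CPM), and of the 5 tested Pecam1, Cdh5 and Tie1 were higher and Kdr lower in interstitial than in BMDM, while Vwf and Kdr were lower in lining than in BMDM. Gpihbp1, which holds lipoprotein lipase on capillaries, was at 0 in all 9 libraries. Of 5 endothelial markers tested in lining over interstitial 1, Pecam1, was lower (0.970, 4.49 and 2.63 CPM in lining, against 9.31, 9.10 and 33.6 CPM in interstitial), in the same direction as Fabp4 and Cd36, and its part in those results was not tested. Markers of keratinocytes, which express Fabp5, summed over 6 genes to 5.26 to 8.21 CPM in lining, 1.77 to 10.8 CPM in interstitial and 0.951 to 1.59 CPM in BMDM. The 7 fibroblast markers summed to 169.7 to 303 CPM in lining, 191 to 692 CPM in interstitial and 2.03 to 2.73 CPM in BMDM, and all 7 were higher in both joint groups than in BMDM. The highest sum, in interstitial E, was mostly Prg4 (19.9, 408 and 138 CPM in interstitial D to F). Red cell markers (5 genes) summed to 18.1 to 161 CPM in lining, 13.5 to 426 CPM in interstitial and 0.795 to 4.66 CPM in BMDM, and skeletal muscle markers (5 genes) to 0.751 to 9.26, 7.09 to 17.6 and 2.21 to 3.41 CPM in the same groups. Most of the red cell sum in interstitial D was Hba-a1 (411 CPM). The part of these cells in the differences from BMDM was not tested.

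Other genes of the pathway were taken from 6 lists, which share some genes. In lining over interstitial, 4 of the 6 lists held calls, mostly higher in lining, where all genes tested also had more higher (3.74%) than lower calls (2.05%). Of 16 tested genes of reverse cholesterol transport 5 were higher and 0 lower in edgeR (before adjustment 1 was lower at p under 0.05, and DESeq2 called 1 and limma-voom 0 lower), with a median log2 fold change of 0.41 beside -0.01 for all genes. Npc1 (0.66 ± 0.12) and Npc2 (0.71 ± 0.14, lost without lining A and with the 6 joint libraries alone) were among them, the pair that moves cholesterol out of lysosomes, as was Ch25h, which makes an oxysterol that activates LXR (1.82 ± 0.47). Of 18 tested LXR and RXR receptors and known targets 6 were higher and 1 lower (median 0.43). Nr1h3, the gene of LXR alpha, had 20.5 ± 2.49 CPM in lining, against 6.35 ± 2.95 CPM in interstitial (mean ± SD, n = 3 each, log2 fold change 1.71 ± 0.40, edgeR adjusted p = 0.0276). Scd1, a fatty acid desaturase gene, was lower (-2.08 ± 0.51).

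The number of calls in these lists depended on single libraries. In the LXR list 6 higher calls became 0 without lining B, 2 without lining A or BMDM I, and 3 without interstitial E, BMDM G or BMDM H, and 1 was left with the 6 joint libraries alone. In the transport list 5 became 2 without lining A or B, 3 without interstitial D or E or any 1 BMDM library, 3 with plain library totals and 1 with the 6 joint libraries alone. The call of Nr1h3 was lost in 6 of 9 fits that left out 1 library, that of Ch25h in 8 and that of Scd1 in 6. Slc27a1, a fatty acid transport protein gene, was the 1 gene of 19 tested called by edgeR for fatty acid binding, activation and oxidation, with 298 ± 42.1 CPM in lining, against 79.0 ± 27.8 CPM in interstitial (1.90 ± 0.23, edgeR adjusted p = 3.66e-04). In that list DESeq2 called 3 higher and 1 lower, limma-voom 2 higher and 1 lower, and 4 were higher and 2 lower at p under 0.05 before adjustment. The call of Slc27a1 held in all 16 alternatives, as did that of Lrp1, a large endocytic receptor gene for APOE-bearing particles (1.31 ± 0.20, edgeR adjusted p = 0.00236), and that of Cd68 (0.82 ± 0.15). With Sort1 (1.70 ± 0.34, lost without lining A, lining B or interstitial E and with the 6 joint libraries alone), Lrp1 and Cd68 were the 3 of 15 lipase and lipoprotein uptake genes called, all higher. Cd68, like Mertk of the LXR list, is also among the macrophage markers given above. Of 18 lipid droplet and 10 PPAR genes 0 were called in edgeR. Before adjustment, 1 gene of the droplet list, the fatty acid carrier gene Fabp7, was higher and 2 lower at p under 0.05. In the PPAR list 2 genes were higher and 1 lower. DESeq2 called 1 higher and 1 lower in each of the droplet and PPAR lists, and limma-voom 0 in the droplet list and 1 lower in the PPAR list.

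Against BMDM each list held calls in both directions in each joint group, as did all genes tested (23.1% higher and 20.5% lower in lining, 23.4% and 21.3% in interstitial). In each list the number of calls also changed when 1 library was left out. For reverse cholesterol transport, lining over BMDM had 5 of 16 higher and 5 lower, and interstitial over BMDM had 3 higher and 8 lower. Pltp, the phospholipid transfer protein gene and a known LXR target, had 2262 ± 384 CPM in lining, 1634 ± 164 CPM in interstitial and 110.5 ± 10.5 CPM in BMDM. Cyp27a1, which makes the oxysterol 27-hydroxycholesterol, had 59.8 ± 17.1 CPM in lining, 107 ± 21.6 CPM in interstitial and 7.02 ± 1.03 CPM in BMDM. Scarb1, a receptor gene for high-density lipoprotein, went the other way, with 64.5 ± 17.8 CPM in lining, 44.1 ± 2.61 CPM in interstitial and 199 ± 1.07 CPM in BMDM, as did Nceh1, a cholesteryl ester hydrolase gene, with 130.4 ± 19.2, 92.0 ± 31.7 and 372 ± 16.1 CPM in the same groups. All 4 genes passed in both comparisons with BMDM in all 16 alternatives.

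The LXR list had 10 of 18 higher and 3 lower in lining over BMDM, and 6 higher and 7 lower in interstitial over BMDM. Leaving out 1 library, these became 7 to 10 and 3 to 5 in lining, and 5 to 7 and 4 to 8 in interstitial. Mertk, a receptor kinase gene for apoptotic cell uptake, was higher (3.31 ± 0.18 in lining and 2.87 ± 0.17 in interstitial), as was Mylip, which degrades lipoprotein receptors (1.86 ± 0.18 and 1.52 ± 0.18). Fasn, the fatty acid synthase gene, was lower (-3.05 ± 0.25 and -3.25 ± 0.25). For the 10 tested genes of the PPAR list, lining had 6 higher and 1 lower, and interstitial 6 higher and 2 lower. The largest of the higher changes was that of Klf4, which the list includes (4.59 ± 0.15 and 4.83 ± 0.15). Pparg itself had 2.28 ± 0.99 CPM in lining, 2.72 ± 2.40 CPM in interstitial and 31.0 ± 2.26 CPM in BMDM, lower, at -3.78 ± 0.62 and -3.30 ± 0.57, while Ppard was higher (1.03 ± 0.18 and 0.95 ± 0.18).

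For the 18 genes of the droplet list, lining had 6 higher and 2 lower, and interstitial 6 higher and 3 lower, among them Fabp7. Dgat2, a gene for triglyceride synthesis, was higher (3.89 ± 0.41 and 5.21 ± 0.42), as was Lpin1 (2.28 ± 0.22 and 2.40 ± 0.22), where Plin2 and Soat1 were lower. The lipase and uptake list had 6 of 15 higher and 3 lower in lining, and 4 higher and 7 lower in interstitial. Olr1, a receptor gene for oxidised low-density lipoprotein, had 111 ± 23.8 CPM in lining and 26.7 ± 31.2 CPM in interstitial and 0 counts in BMDM, at least 2090.3-fold and at least 599-fold higher against 3 counts over the 3 BMDM libraries. For fatty acid binding, activation and oxidation, lining had 3 of 19 higher and 4 lower, and interstitial 3 higher and 6 lower. Fabp7, another carrier of the Fabp4 and Fabp5 family, had 0 counts in interstitial and was at least 32.9-fold lower there than in BMDM (5.50 ± 0.43 CPM).

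**Figure D5:**
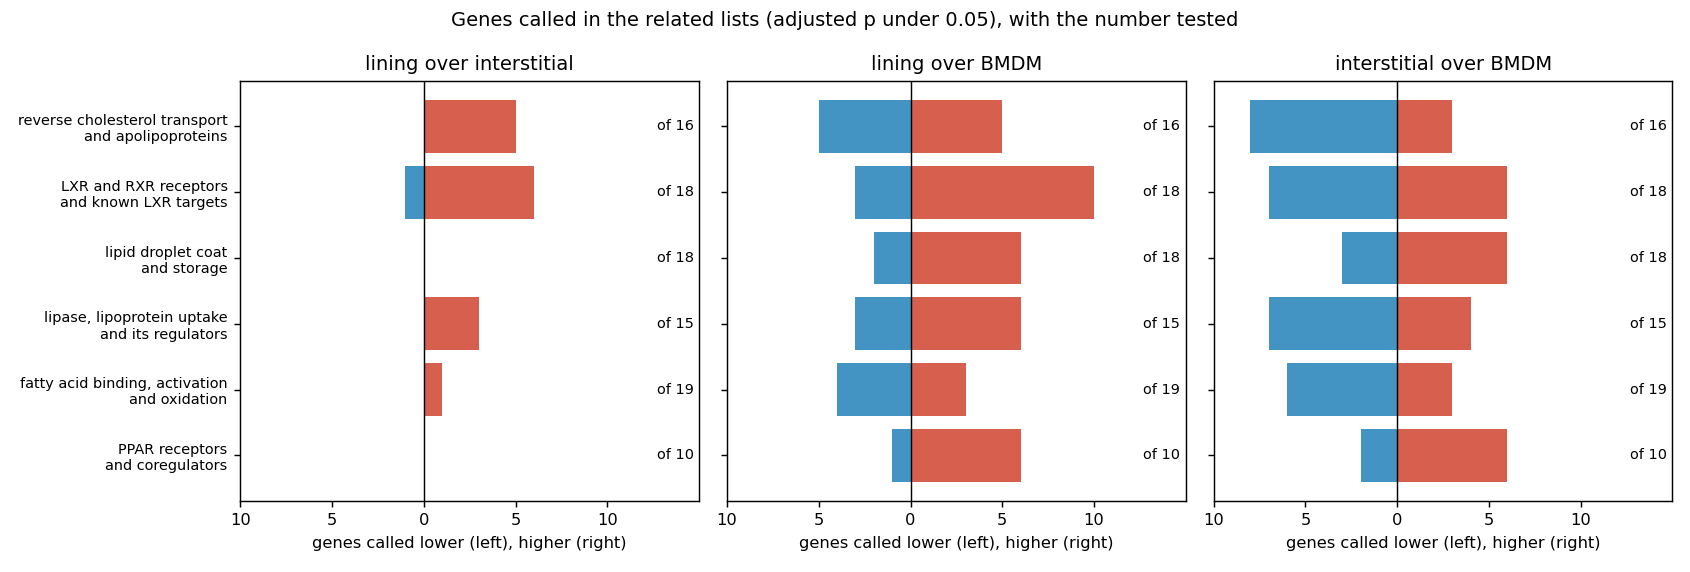
Number of genes called higher (right) and lower (left) at an edgeR adjusted p under 0.05 in 6 related lists for each comparison, with the number tested at the right. Lining over interstitial has calls mainly on the higher side (5, 6, 3 and 1 genes in 4 lists), while both comparisons with BMDM have calls on both sides in all 6 lists.

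Profiles were compared as the root mean square difference of centred log2 CPM over the 9 libraries, which share their depth and groups, among 12600 other tested genes. The nearest genes to Apoe were Timp2 (0.27), C1qa (0.30) and Tmem37 (0.30). Those to Abca1 were Sorbs3 (0.16), P2ry13 (0.23) and Tns1 (0.29), and those to Cd36 were Ighm (0.23), Eps8 (0.25) and Clec2d (0.28). Soat1 had the closest neighbours of the 10, Gramd1b (0.07), Erc1 (0.09) and Bcl7a (0.13), and Lipa was nearest to Fth1 (0.14), Pik3cb (0.15) and Ahsa1 (0.16). Plin2 was nearest to Rfc2 (0.14), Lpl to Crybg1 (0.28) and Abcg1 to 0610009B22Rik (0.20). The least closely matched were Fabp4, nearest to Oasl1 (0.45), and Fabp5, nearest to H2afx (0.54), Cdc20 (0.59) and Brip1 (0.60).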

How the data were processed

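The authors deposited 1 table of read counts per gene, not normalized. Per the file headers, reverse-stranded reads had been assigned to exons of Ensembl release 91 (GRCm38) by featureCounts 1.6.1, with no option named for multi-mapping reads. Per the submitters' processing notes, the tools were STAR 2.5.4a, cutadapt 1.15, bcl2fastq 2.17.1.14, DESeq2 1.20.0 and R 3.5.0, with no role given.

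Symbols were found for 53274 of the 53465 genes. The deposited counts went into edgeR 4.0.16 under R 4.3.3. Low genes were removed with filterByExpr (count minimum 10, total minimum 15), TMM set the library scale, and 1 robust quasi-likelihood fit used all 9 samples with 1 mean for each group, leaving 6 residual degrees of freedom. The 3 contrasts were tested 2-sided across all genes, and a gene was called at a Benjamini-Hochberg adjusted p under 0.05. SE is the absolute log2 fold change divided by the root of F, and SD is taken over the 3 samples of each group. The fit was tested on simulated data. DESeq2 1.42.0 and limma 3.58.1 (voom) served as alternatives, beside other scalings, filters and sample sets. Counting intervals are exact (Clopper-Pearson, 95%) and, like floors, cover counting error only. Promoters are RefSeq windows (GRCm38.p6), and a planned comparison of the Fabp4 and Fabp5 protein sequences was not run.

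The members, the 6 pathway lists and the 9 marker lists were chosen with earlier results of these data known. The list genes named come from the 3 largest changes per direction, list and comparison among called genes, and the profiles named are the 3 nearest of each member (prior count 2). Npc1 and single marker genes were named after their values were seen.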

Additional observations from a re-analysis of the deposited data

Results flagged for a closer look

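For 3 genes the difference from BMDM was not the same in lining as in interstitial, by the test of that difference itself, which is the direct contrast of lining over interstitial. Apoe stood higher above BMDM in lining by 1.27 on the log2 scale (edgeR adjusted p = 0.0254). Cd36 stood less far above BMDM in lining, with a value of -1.41 (edgeR adjusted p = 0.00601). Fabp4 was lower than BMDM in lining and did not pass in interstitial, and the difference between these was -3.10 (edgeR adjusted p = 0.0183). These are the same 3 calls given above for lining over interstitial, and that test also chose the genes. The Apoe call was lost in 5 of the 16 alternatives and the Fabp4 call in 3. No explanation of these differences was tested. Single outlying libraries within the groups of 3 were not tested for.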

How the results depend on the processing

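Of 477 values for the 10 genes over 16 alternatives, 450 kept their direction and side of the threshold, 14 lost a call, 8 gained a call and 5 changed sign, and 18 of 30 results never changed. In lining over interstitial the sign changed for Abcg1 without interstitial F (0.32, in a range of -0.62 to 0.32 leaving out 1 library each), for Fabp5 with limma-voom (0.94) and without interstitial F (1.62, range -1.06 to 1.62), and for Plin2 without lining B (-0.052, range -0.052 to 0.37). In interstitial over BMDM it changed for Fabp4 without interstitial E (0.27, range -0.38 to 0.27). The number of the 10 genes called in lining over interstitial, 3 in the main analysis, was 5 with DESeq2 and 1 to 4 leaving out a library (1 without lining A). The number of all genes called there, 730, was 1298 with DESeq2 and 366 with only the 6 joint libraries, and 396 to 888 leaving out a library (396 without lining A, 462, 469 and 461 without BMDM G, H and I). The number of the 10 genes called leaving out a library was 8 to 10 in lining over BMDM and 7 to 8 in interstitial over BMDM, and that of all genes 3945 to 6406 and 4150 to 6271. Plain library totals moved the median of all genes by up to -0.11. The alternatives were applied to the lists after seeing the data. No paired analysis was possible because the labels share no replicate number between groups. Depth limits Fabp4 and Fabp5 in the smaller joint libraries. The cause of these changes was not tested.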

Other observations

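Some list genes with few counts in 1 group were chosen after their values were seen. Fabp7 had 21 counts in lining, against 0 in interstitial (2.07 ± 3.10 CPM in lining, mean ± SD, n = 3), a difference that did not pass (edgeR adjusted p = 0.0854). Lipg, the endothelial lipase gene, had 0 counts in both joint groups, at least 5.54-fold and at least 6.54-fold lower in lining and in interstitial than in BMDM (71 counts). Angptl4, an inhibitor of lipoprotein lipase, had 0 counts in interstitial, at least 18.0-fold lower than in BMDM (195 counts). Cd5l, a lipid-binding macrophage protein gene and known LXR target, had 1 count in lining, against 705 in BMDM, 165-fold lower with a counting interval of 29.5 to 6528.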
